A study of Saccharomyces cerevisiae with 6 samples.

Results

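The genes described here encode the proteins that cut and polyadenylate the 3′ ends of messenger RNAs in budding yeast, Saccharomyces cerevisiae, and that carry the finished RNAs out of the nucleus. They are 36 genes, picked by name as cleavage and polyadenylation factors, THO and TREX subunits, TREX-2 subunits and mRNA export proteins. The rule used no measured value, although the group was proposed with earlier results of these data known. Of the 36, 35 were among the 5656 genes that the arrays measured with a probe set naming a single gene, and all 35 passed the filter on dim probe sets. THO2, a THO subunit, is read only by probe sets that also name another gene, YNL140C, so no value is given for it.

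A new transcript of RNA polymerase II is bound at its 5′ cap by the nuclear cap-binding complex, a heterodimer of Sto1 and Cbc2. At the other end it is cleaved by the cleavage and polyadenylation factor (CPF) together with cleavage factors IA and IB, and a poly(A) tail is added. The THO complex, with the helicase Sub2 and adaptor proteins, forms TREX, which packages the RNA while it is made. The export receptor Mex67-Mtr2 then takes it through the nuclear pore, where TREX-2 sits on the inner face and the helicase Dbp5 releases the receptor on the outer face.

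Total RNA from a cbc2Δ strain (Y2685) and from an isogenic wild-type strain (Y255) was measured on Affymetrix Yeast Genome S98 arrays, 3 arrays for each strain. Both strains grew in synthetic complete medium at 30 °C to log phase, at an OD600 of 1. The labels call the strains isogenic and name no allele other than the deletion, and they do not say whether each sample was a culture of its own. The p-values therefore rest on the spread from sample to sample, which may be technical. CBC2 itself read 1.9, 2 and 4.5 in deposited intensity on the deletion arrays, against 946, 1089 and 623 on the wild-type arrays.

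Intensities below are quantile normalised, which gives every array the same distribution, so a change of the whole mRNA pool cannot be seen in them. In a bulk culture, fewer cells with a transcript and less transcript per cell cannot be told apart. Each log2 fold change is the deletion mean less the wild-type mean and comes with a standard error (SE). Calls need limma's adjusted p, taken over all 6956 probe sets tested, to be under 0.05. Arrays correlated at 0.980 to 0.988 within a strain and at 0.951 to 0.969 between strains (log2 values, probe sets other than controls). The run files place wild-type replicates 1 and 2 on a fluidics station of their own and the other 4 arrays on a second, and deletion replicate 2 was hybridised and scanned on another day than the rest. The ratio of 3′ to 5′ signal of the TATA-binding protein gene, a sign of RNA integrity, was 3.67 to 5.13 on the deletion arrays and 2.48 to 3.74 on the wild-type arrays, and that of ACT1 was 1.02 to 1.42 on the deletion arrays and 1.15 to 1.47 on the wild-type arrays. The part of station and RNA integrity in the values of single genes was not tested beyond the station block given below. Summed over 4 genes each, markers of α cells (STE3, MF(ALPHA)1, MF(ALPHA)2 and SAG1) read 9434 to 9896 in the deletion and 9632 to 10329 in the wild type, and markers of a cells (STE2, MFA1, MFA2 and BAR1) 112 to 166 in the deletion and 121 to 138 in the wild type. MF(ALPHA)1 made up most of the α sum, and single markers differed. STE3 read 394 to 620 in the deletion and 702 to 797 in the wild type. MF(ALPHA)2 read 335 to 434 in the deletion and 224 to 303 in the wild type. STE2 read 11.6 to 19.4 in the deletion and 23.5 to 28.8 in the wild type. The other markers overlapped between the strains.

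Most of this machinery was not called between the strains. Limma called 5 of the 35 members tested (14.3%), of which 2 were higher in the deletion and 3 lower, while 32.6% of all 5257 tested genes were called, 16.3% higher and 16.3% lower. The genes that fell were HRB1, HPR1 and HRP1, which encode an RNA-binding adaptor of TREX, a THO subunit and cleavage factor IB. Those that rose were DBP5, which encodes the helicase at the pore's outer face, and RNA14, which encodes the scaffold of cleavage factor IA. The calls of HRP1 and RNA14 depended on the processing, that of HRP1 being lost in 10 of 18 other settings and that of RNA14 in 7 of 17. The median log2 fold change of the members was 0.10 and that of all tested genes 0.00, and the middle 50% of the members lay between -0.29 and 0.28, against -0.37 and 0.39 for all genes.

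The members' differences were also small in size. Only HRB1 changed by at least 2-fold, 2.86% of the members, against 10.4% of all tested genes. For 29 members (82.9%) the 95% interval of the fold change lay wholly within 2-fold in either direction, against 65.6% of all genes. For 18 members (51.4%) the deletion arrays lay wholly above or below the wild-type arrays, 10 above and 8 below. Of all genes 49.8% did not overlap, 24% higher and 25.7% lower, so this share is near the background. Directions of uncalled members are those on the normalised scale, and 13 of the 30 had the other sign on the deposited scale. The other settings that were tried all reuse the same 6 arrays, so tallies over them are not independent support. Treating the scan day as a block gave the fold changes found without deletion replicate 2. Taking the brightest probe set of any suffix changed no member. Among the 18 other ways of processing the data that were tried, the share of members called ran from 0 to 17.1% and that of all genes from 9.66 to 35.5%, and the members' share was the lower in 18 of 18.

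**Figure D1:**
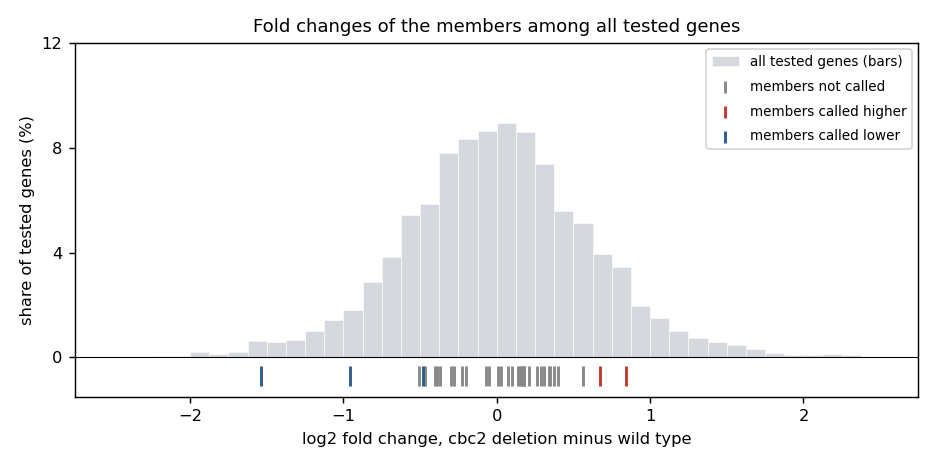
Share of all 5257 tested genes (bars, in percent) by log2 fold change, cbc2 deletion minus wild type, with the 35 members as ticks under the axis, coloured by call. The members lie between -1.54 and 0.84 and HRB1 alone lies beyond 1 in either direction; 3 genes with lower and 10 with higher values than the axis shows are outside the plot.

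HRB1 (YNL004W) showed the largest difference of any member. It encodes a shuttling RNA-binding protein that resembles the serine- and arginine-rich (SR) splicing proteins of animals and travels with TREX on mRNA. Its normalised intensity was 251, 458 and 321 on the deletion arrays, against 1206, 1125 and 667 on the wild-type arrays. The highest deletion array lay below the lowest wild-type array, which was replicate 3, the wild-type array that shared a station with the deletion arrays. HRB1 fell to 344 ± 106 in the deletion, against 999 ± 291 in the wild type (SD, n = 3 each), a 2.90-fold difference (log2 fold change -1.54, SE 0.27, adjusted p = 0.00287).

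GBP2 (YCL011C), the paralog of HRB1 with a like role on TREX, was not called. It read 1045, 1000.2 and 1210.2 on the deletion arrays, against 1305, 1289.9 and 1389 on the wild-type arrays. All deletion arrays were the lower ones (log2 fold change -0.30, SE 0.14, adjusted p = 0.143). The log2 ratio of HRB1 to GBP2 within an array was -2.06, -1.13 and -1.91 on the deletion arrays. On the wild-type arrays the ratio was -0.11, -0.2 and -1.06. It was 1.24 lower on average in the deletion than in the wild type. The strains did not overlap, but only a narrow gap lay between deletion replicate 2 and wild-type replicate 3. With 3 arrays a side an exact two-sided permutation test cannot go below 0.1, which is the p it gave here and for the gene pairs RNA14 with RNA15 and HPR1 with MFT1 below. These 3 pairs were chosen after their values were seen, and the p adjusted over them was also 0.1. Each pair sets a called member beside an uncalled one. The choice itself thus favoured a separation of the strains, and the test cannot decide whether the genes of a pair differ.

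HPR1 (YDR138W), which encodes a core subunit of THO, read 99.2, 111 and 93.9 on the deletion arrays, against 215, 209 and 168 on the wild-type arrays. All deletion arrays lay below all wild-type arrays. The mean was 101 ± 8.92 in the deletion and 198 ± 25.8 in the wild type, so that HPR1 fell 1.94-fold (log2 fold change -0.96, SE 0.18, adjusted p = 0.00332).

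The other 3 THO genes tested were not called, so that 1 of 4 was (25%, against 32.6% of all genes). MFT1 (YML062C), a smaller subunit, read 193, 204 and 241 on the deletion arrays, against 201, 205 and 198 on the wild-type arrays, and its 95% interval was -0.28 to 0.43 (log2 fold change 0.07, SE 0.16, adjusted p = 0.756). THP2 (YHR167W), another small subunit, read 50.3, 51.2 and 65.2 on the deletion arrays, against 41.7, 46.4 and 42.6 on the wild-type arrays and was a little higher without overlap (log2 fold change 0.34, SE 0.21, adjusted p = 0.244). TEX1 (YNL253W), a THO-associated protein gene, was among the 3 uncalled members with the largest difference. Its values were 58.0, 77.0 and 59.0 on the deletion arrays, against 79.0, 77.1 and 115 on the wild-type arrays, with deletion replicate 2 next to wild-type replicate 2 (log2 fold change -0.47, SE 0.22, adjusted p = 0.138). The log2 ratio of HPR1 to MFT1 was 1.03 lower in the deletion than in the wild type, without overlap. No such ratio was taken to THP2 (0.34) or to TEX1 (-0.47), which was itself lower in the deletion.

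Among the remaining TREX genes, SUB2 (YDL084W), which encodes the DEAD-box helicase that joins THO to the adaptors, read 1689, 1305 and 1160.0 on the deletion arrays, against 1429, 1360.0 and 935 on the wild-type arrays. The strains overlapped widely (log2 fold change 0.16, SE 0.21, adjusted p = 0.577). YRA2 (YKL214C), a paralog of the export adaptor gene YRA1, came nearest to a call among the members that missed it. It read 245, 310.1 and 426 on the deletion arrays, against 229.5, 199 and 219.9 on the wild-type arrays, higher on every deletion array than on any wild-type array but spread among the deletion arrays (log2 fold change 0.56, SE 0.21, adjusted p = 0.0670). Without deletion replicate 1 it passed the test (0.75, adjusted p = 0.0332).

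**Figure D2:**
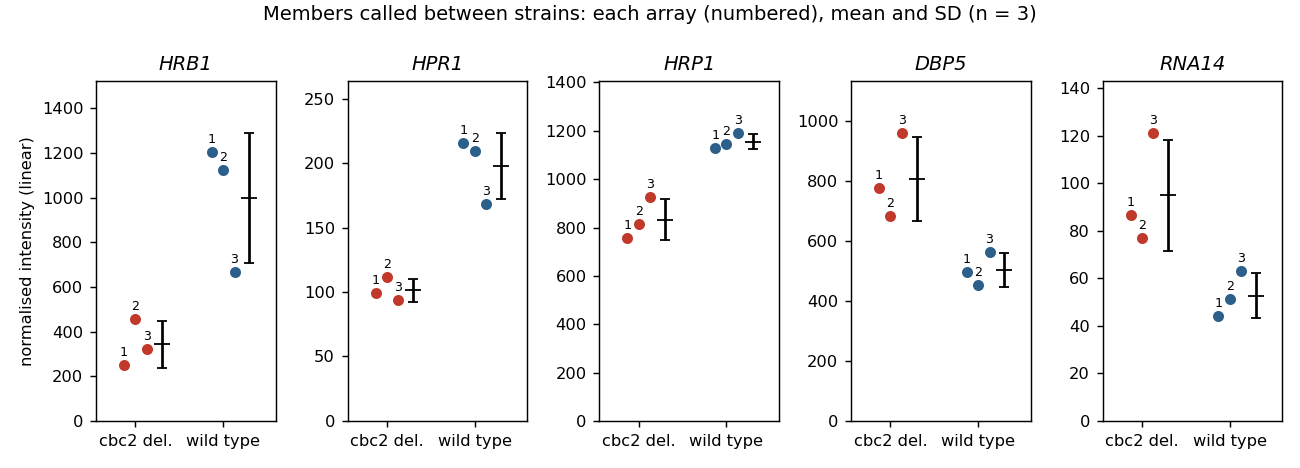
Normalised intensity (linear axis from 0) of the 5 called members on each array, numbered by replicate, with the mean and SD of each strain (n = 3) as bars. HRB1, HPR1 and HRP1 are lower on every deletion array than on any wild-type array, and DBP5 and RNA14 are higher; wild-type replicate 3 lies nearest to the deletion arrays in 4 of the 5 panels, HRP1 being the exception.

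In cleavage factor IA, 1 of the 4 genes was called (25%, against 32.6% of all genes). RNA14 (YMR061W), whose product holds the factor together, rose in the deletion. It read 86.6, 77.1 and 121 on the deletion arrays, against 44.0, 51.3 and 63.1 on the wild-type arrays, without overlap. The mean was 95 ± 23.3 in the deletion and 52.8 ± 9.63 in the wild type, a 1.79-fold difference (log2 fold change 0.84, SE 0.24, adjusted p = 0.0230). RNA14 was among the dimmer members, and its call depended on the processing, as given below.

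RNA15 (YGL044C), which encodes the RNA-binding partner that Rna14 holds, was not called. It read 195, 126 and 194 on the deletion arrays, against 225, 242 and 199 on the wild-type arrays, with the strains apart by a small gap and deletion replicate 2 well below the other arrays (log2 fold change -0.39, SE 0.21, adjusted p = 0.173). The log2 ratio of RNA14 to RNA15 within an array was 1.23 higher in the deletion than in the wild type, without overlap. No such ratio was taken to CLP1 or PCF11. CLP1 (YOR250C), the ATP-binding subunit gene, read 169, 159 and 172 on the deletion arrays, against 155, 138 and 101 on the wild-type arrays (log2 fold change 0.37, SE 0.19, adjusted p = 0.174). PCF11 (YDR228C), whose product binds the tail of RNA polymerase II and acts in termination, overlapped between strains, at 109, 126 and 151 on the deletion arrays, against 102, 137 and 105 on the wild-type arrays (log2 fold change 0.17, SE 0.20, adjusted p = 0.544).

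HRP1 (YOL123W) encodes the whole of cleavage factor IB, an RNA-binding protein that also shuttles between nucleus and cytoplasm. It read 758, 814 and 927 on the deletion arrays, against 1131, 1145 and 1192 on the wild-type arrays. The deletion arrays were all lower, and the wild-type arrays lay close together. HRP1 fell to 833 ± 86.3 in the deletion, against 1156 ± 31.8 in the wild type, 1.39-fold (log2 fold change -0.48, SE 0.15, adjusted p = 0.0321), the smallest of the 5 called differences. Its call was lost without any 1 of 5 of the arrays, as given below.

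None of the 14 CPF genes was called by limma, against 32.6% of all genes. Of the 14, 2 passed an unadjusted p under 0.05, YSH1 and FIP1. Over all 35 members 8 did (22.9%), against 44.8% of all genes. In the nuclease module, YSH1 (YLR277C), which encodes the endonuclease that cuts the transcript, read 242, 267 and 192 on the deletion arrays, against 312, 293 and 312 on the wild-type arrays. Every deletion array was lower, by a margin that did not pass the adjusted test (log2 fold change -0.40, SE 0.17, adjusted p = 0.102). CFT2 (YLR115W), an RNA-binding relative of YSH1, lay at -0.28 (SE 0.18) with 1 deletion array inside the wild-type range. MPE1 (YKL059C), which encodes a zinc-finger subunit, had a wide spread in the wild type, reading 138, 127 and 138 on the deletion arrays, against 116, 75.9 and 190.3 on the wild-type arrays (log2 fold change 0.18, SE 0.29, adjusted p = 0.679).

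The polymerase module adds the tail. PAP1 (YKR002W), the poly(A) polymerase gene, read 253, 241 and 293 on the deletion arrays, against 230.2, 162 and 281 on the wild-type arrays, with the deletion arrays inside or just above the wild-type range (log2 fold change 0.26, SE 0.21, adjusted p = 0.390). FIP1 (YJR093C), whose product ties Pap1 to the complex, read 248, 239 and 205 on the deletion arrays, against 304, 272 and 319 on the wild-type arrays. It was lower on all deletion arrays and not called (log2 fold change -0.37, SE 0.16, adjusted p = 0.105). YTH1 (YPR107C), a zinc-finger subunit gene, was higher on all of them, at 106, 128 and 111 on the deletion arrays, against 93.1, 86.5 and 96.8 on the wild-type arrays (log2 fold change 0.31, SE 0.17, adjusted p = 0.191). CFT1 (YDR301W), the large scaffold subunit gene, and PFS2 (YNL317W), a WD-repeat subunit gene, overlapped between strains, with log2 fold changes of -0.20 (SE 0.19) and 0.14 (SE 0.16). The 5 genes of this module had fold changes between -0.37 and 0.31 and a median of 0.14.

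The phosphatase module, and the APT complex it forms with further subunits, held the members with the smallest differences along with the one of widest interval. SYC1 (YOR179C), whose product resembles part of Ysh1, read 308, 342 and 316 on the deletion arrays, against 345, 345 and 271 on the wild-type arrays. Its log2 fold change was 0.01 (SE 0.17, adjusted p = 0.960) with a 95% interval of -0.35 to 0.38. PTA1 (YAL043C), the scaffold of the module, read 330.4, 282 and 265 on the deletion arrays, against 282, 311 and 265 on the wild-type arrays. Its interval was -0.33 to 0.39 around 0.03 (SE 0.16, adjusted p = 0.908). SSU72 (YNL222W), which encodes a phosphatase of the RNA polymerase II tail, was higher on every deletion array, at 199, 214 and 228 on the deletion arrays, against 177, 140.4 and 189.5 on the wild-type arrays (log2 fold change 0.35, SE 0.17, adjusted p = 0.154). REF2 (YDR195W), an RNA-binding subunit gene, was also higher without overlap, by 0.18 (SE 0.15, adjusted p = 0.397), and SWD2 (YKL018W), whose product also serves in a histone methylase complex, lay at 0.21 (SE 0.16, adjusted p = 0.363). PTI1 (YGR156W), which encodes an APT subunit with an RNA recognition motif, was dim and irregular in the wild type. It read 37.4, 35.7 and 40.9 on the deletion arrays, against 31.2, 77.6 and 64.5 on the wild-type arrays, and its interval of -1.23 to 0.22 reached past a 2-fold fall (log2 fold change -0.51, SE 0.32, adjusted p = 0.262). Without wild-type replicate 1, the low one, it would have been called (-0.90, adjusted p = 0.0289).

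**Figure D3:**
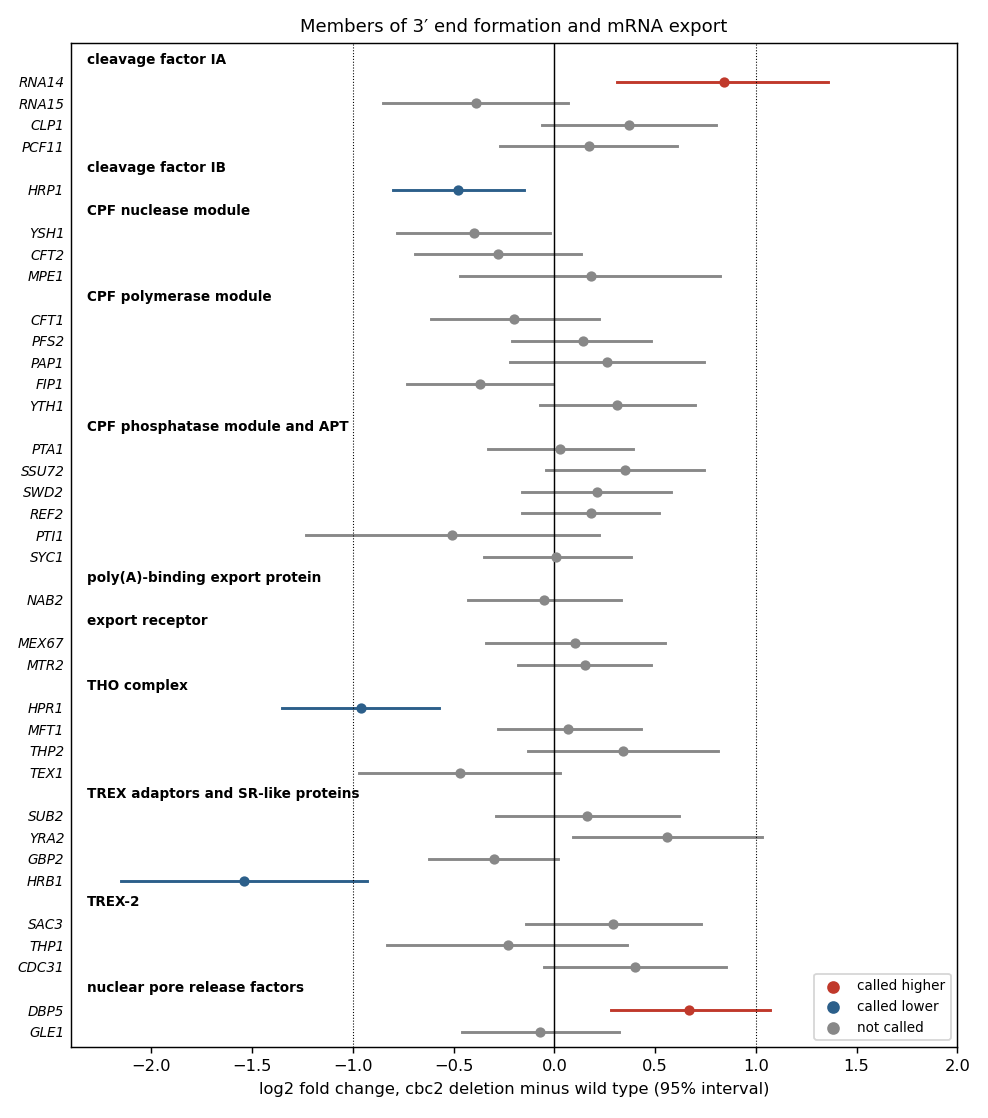
Log2 fold change, cbc2 deletion minus wild type, of the 35 members by complex, with 95% intervals from limma (n = 3 arrays a strain); dotted lines mark 2-fold. The 5 called genes are coloured, and 29 of the 35 intervals lie within the dotted lines.

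The genes of the proteins that carry mRNA through the pore were not called, against 32.6% of all genes, and are too few to set apart from that share. NAB2 (YGL122C), which encodes a poly(A)-binding protein that limits tail length and accompanies mRNA out, read 447, 421 and 371 on the deletion arrays, against 394, 393 and 500.4 on the wild-type arrays. The strains overlapped and the interval was -0.43 to 0.33 around -0.05 (SE 0.17, adjusted p = 0.851). MEX67 (YPL169C), the gene of the export receptor's large subunit, read 411, 499 and 384 on the deletion arrays, against 508, 380.1 and 328 on the wild-type arrays (log2 fold change 0.10, SE 0.20, adjusted p = 0.721). MTR2 (YKL186C), which encodes its small partner, read 241, 228 and 248 on the deletion arrays, against 213, 214 and 219 on the wild-type arrays. MTR2 was higher on each deletion array than on any wild-type array, by a log2 fold change of 0.15 (SE 0.15, adjusted p = 0.478).

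At the pore's inner face, none of the 3 TREX-2 members was called, against 32.6% of all genes, and 3 are too few to set apart from that share. SAC3 (YDR159W), the scaffold gene, read 161, 151 and 232 on the deletion arrays, against 146, 146 and 143 on the wild-type arrays, with deletion replicate 3 well above the rest (log2 fold change 0.29, SE 0.19, adjusted p = 0.277). THP1 (YOL072W), whose product binds Sac3 and RNA, varied from 124 to 224 within the deletion and from 149.8 to 249 within the wild type (log2 fold change -0.23, SE 0.27, adjusted p = 0.536). CDC31 (YOR257W), the yeast centrin gene, which also serves the spindle pole body, read 235, 249 and 163 on the deletion arrays, against 140.1, 166 and 179 on the wild-type arrays (log2 fold change 0.40, SE 0.20, adjusted p = 0.160). CDC31 passed the test without deletion replicate 3 (0.59, adjusted p = 0.0357) and with array weights (0.53, adjusted p = 0.0438).

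At the outer face, DBP5 (YOR046C) rose in the deletion. Its product is the DEAD-box ATPase that strips Mex67 from the arriving mRNA. It read 776, 682 and 959 on the deletion arrays, against 495, 451 and 562 on the wild-type arrays, without overlap. The mean was 806 ± 141 in the deletion and 503 ± 55.8 in the wild type, a 1.59-fold difference (log2 fold change 0.67, SE 0.18, adjusted p = 0.0176). GLE1 (YDL207W), which encodes the activator of Dbp5 at the pore, was not called, at 149.5, 170.0 and 196 on the deletion arrays, against 173, 202 and 165 on the wild-type arrays. Its 95% interval of -0.46 to 0.32 lay within 2-fold (log2 fold change -0.07, SE 0.18, adjusted p = 0.789).

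The 5 calls did not stand equally firm. With the fluidics station as a block, which sets the deletion arrays against wild-type replicate 3 alone, 0 of 35 members were called by limma and 9.76% of all genes. The log2 fold changes in that fit were -1.0 for HRB1 (adjusted p = 0.0836), -0.73 for HPR1 (adjusted p = 0.0850), -0.52 for HRP1 (adjusted p = 0.150), 0.51 for DBP5 (adjusted p = 0.221) and 0.56 for RNA14 (adjusted p = 0.290), each with the same sign as before. Across the 18 settings HRB1 and HPR1 lost their calls in that setting only. DBP5 lost its call in 3 of 18, among them without wild-type replicate 2 (0.60, adjusted p = 0.0580), RNA14 in 7 of the 17 that tested it, and HRP1 in 10 of 18. HRP1 was no longer called without any 1 of 5 of the arrays, deletion replicate 3 being the exception (adjusted p = 0.0728 to 0.105). RNA14 was not called without wild-type replicate 1 or 2 or deletion replicate 1 or 3 (adjusted p = 0.05 to 0.0713). On the deposited scale, where the median of all genes was -0.25, HRB1 and HPR1 alone among the members were called.

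**Figure D4:**
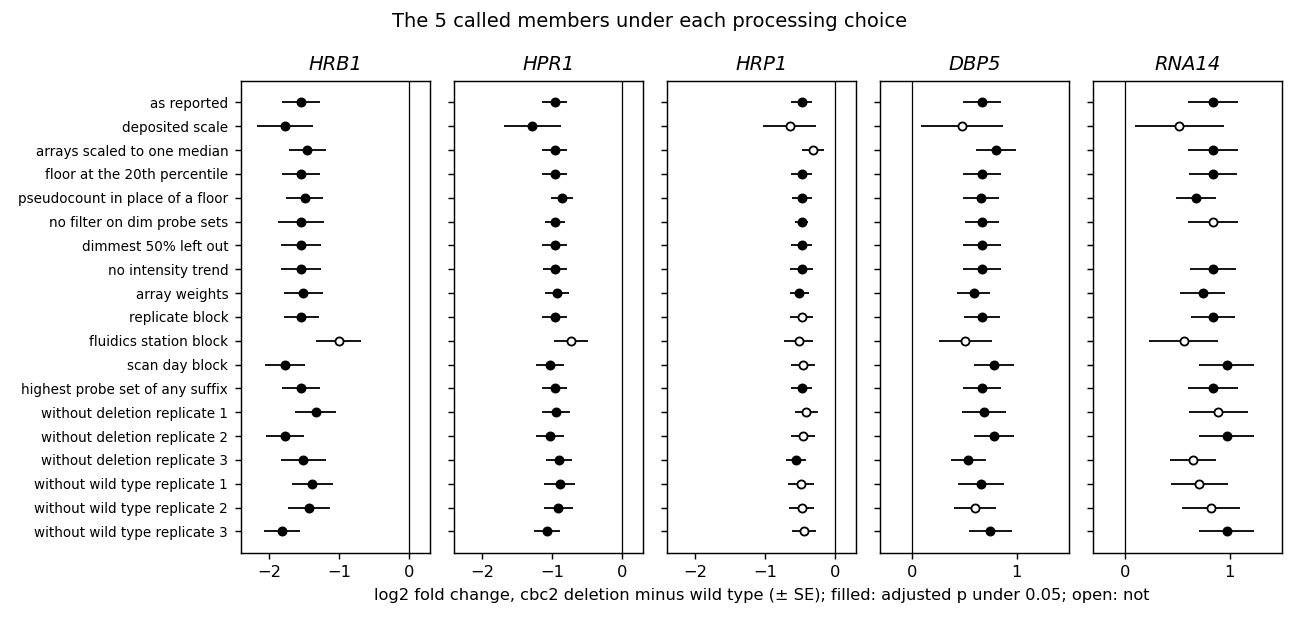
Log2 fold change (cbc2 deletion minus wild type, ± SE) of the 5 called members as reported and under 18 other processing choices; filled points have an adjusted p under 0.05. The sign of each gene is the same in every row that has a point, and all 5 points are open with the fluidics station as a block.

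A list of 32 further genes of the same pathway was set beside the members. Of the 30 tested, 5 rose and 2 fell (23.3% called, against 32.6% of all genes), with a median of 0.05. SUS1, of TREX-2, had no probe set of its own, and RTT103, a termination factor gene, was under the filter. SKY1 (YMR216C), which encodes the kinase that phosphorylates the SR-like proteins Npl3 and Gbp2, read 433, 469.8 and 341 on the deletion arrays, against 889.7, 838 and 701 on the wild-type arrays and fell (log2 fold change -0.97, SE 0.18, adjusted p = 0.00339). HMT1 (YBR034C), the arginine methyltransferase that modifies Npl3, Hrp1 and other RNA-binding proteins, read 488, 430.5 and 545 on the deletion arrays, against 774, 709.7 and 859 on the wild-type arrays and fell as well (log2 fold change -0.68, SE 0.16, adjusted p = 0.0114). Both enzymes were lower on all deletion arrays.

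NPL3 (YDR432W), which encodes the most studied of yeast's SR-like export proteins, rose on the probe set that represents it here. That probe set read 1101, 853 and 1596 on the deletion arrays, against 614, 567 and 483 on the wild-type arrays (log2 fold change 1.05, SE 0.22, adjusted p = 0.00706). Of 2 further NPL3 probe sets, passed over for the suffixes of their names, 1 was at 0.49 (adjusted p = 0.0679). The other, the brightest of the 3, was at 0.18 (adjusted p = 0.593), and neither was called. SEM1 (YDR363W-A), which encodes a small protein shared by TREX-2 and the proteasome, read 320.1, 315 and 428 on the deletion arrays, against 182, 171 and 193 on the wild-type arrays and rose (log2 fold change 0.95, SE 0.18, adjusted p = 0.00352). GFD1 (YMR255W), a pore-associated partner of Dbp5 and Gle1, read 161, 151 and 134 on the deletion arrays, against 69.4, 71.8 and 92.9 on the wild-type arrays and rose (log2 fold change 0.94, SE 0.19, adjusted p = 0.00500). PAB1 (YER165W), the main poly(A)-binding protein gene, read 1681, 1412 and 1476 on the deletion arrays, against 933, 1013 and 948 on the wild-type arrays and rose 1.58-fold (log2 fold change 0.66, SE 0.14, adjusted p = 0.00748). The gene of the deleted subunit's partner, STO1 (YMR125W), read 258, 266 and 289 on the deletion arrays, against 179.8, 189 and 172 on the wild-type arrays and rose (log2 fold change 0.59, SE 0.15, adjusted p = 0.0169). Its call was lost without wild-type replicate 1 (0.59, adjusted p = 0.0511) or 3 (0.55, adjusted p = 0.0541).

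The 12 genes listed for the pore basket and cytoplasmic filaments had a median of 0.00. Of these 1 was called (8.33%, against 32.6% of all genes), the pore-associated GFD1. None of the 5 tested genes of termination by the Nrd1 complex and by Rat1 was called, which are too few to set apart from that share. Their fold changes lay between -0.05 and 0.35. GLC7, the phosphatase gene of APT, was not called from its brighter probe set (0.32, adjusted p = 0.143) and was called from its dimmer one (0.62, adjusted p = 0.0307). With the station as a block, NPL3 alone of the 7 kept its call (1.25, adjusted p = 0.0490), and SKY1 and HMT1 were at -0.77 (adjusted p = 0.0830) and -0.82 (adjusted p = 0.0562). On the deposited scale SKY1 alone was called.

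**Figure D5:**
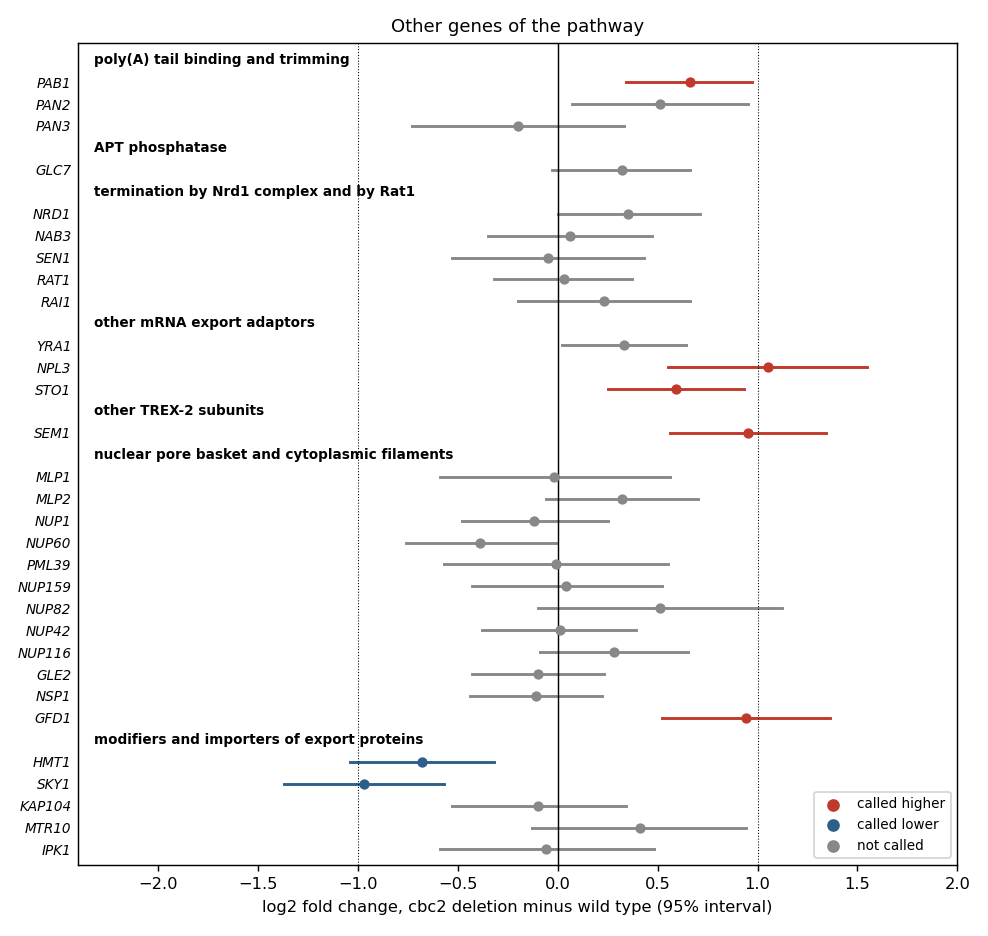
Log2 fold change, cbc2 deletion minus wild type, of the 30 tested further genes of the pathway, with 95% intervals from limma (n = 3 arrays a strain); dotted lines mark 2-fold. The 5 genes called higher are NPL3, SEM1, GFD1, PAB1 and STO1, and the 2 called lower are SKY1 and HMT1.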

How the data were processed

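The authors deposited linear intensities of 9335 probe sets on 6 arrays. How they summarised or scaled them is not given in the sources used here. Trimmed by 2% at each end, array means ran from 252 to 474, a 1.88-fold range, so the intensities were quantile normalised. Values under the 10th percentile (8.25) were raised to it and log2 transformed. Left out were 60 control probe sets and, of the others, the 25% with the lowest mean. Strains were compared with limma 3.58.1 in R 4.3.3 (lmFit, eBayes with an intensity trend, 3 arrays against 3) and Benjamini-Hochberg adjustment over 6956 probe sets; their number limits the precision (median SE 0.20). The fit was also run on simulated data with known changes, which held no station effect and were not normalised anew. That run cannot show how the fit performs on these arrays.

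Per the file headers, the run files of the arrays give fluidics station, hybridisation day and scan day, and no other values of theirs were used. Genes were named from the platform annotation, updated by gene ID through a RefSeq table of assembly R64 (6504 probe sets with 1 gene). Each gene was read from the brightest of its probe sets whose names carry no letter suffix. A gene with no such probe set was read from the brightest of any suffix, as was MFA1. Full values were given for called members, the 3 uncalled members of largest and the 3 of smallest difference, and further genes that were called. Array values were also given for most other members. The members, lists and tests were chosen with earlier results of these data known. The alternatives were 2 other scalings, a higher floor (20th percentile), a pseudocount of 16, 2 other filters, 2 other variance models, 3 blocks, another probe set rule and leaving out each array. Promoter sequences were not analysed here.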

Additional observations from a re-analysis of the deposited data

How the results depend on the processing

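CBC2 kept its direction and call in the 17 alternatives that tested it, and was itself left out with the dimmest 50%. On the deposited scale 728 probe sets were called in place of 2187, 165 higher and 563 lower in place of 1058 and 1129, with 0 members higher, 0 further pathway genes higher and 1 lower, and a median of members of -0.18 beside -0.25 for all genes. With the fluidics station as a block the count of probe sets was 675, and 0 members were higher, 0 lower, 1 further gene higher and 0 lower. Without the filter on dim probe sets, and with the dimmest 50% left out, 1 member was called higher; RNA14 was itself among the dimmest 50%. Leaving out each array in turn gave 1492 to 1967 probe sets, 0 to 2 members higher, 2 to 3 lower and a median of members of 0.06 to 0.13; the 0 is without wild-type replicate 2, and without wild-type replicate 1 the 1 member higher was DBP5. The cause was not tested. Of 747 values of 42 genes in these alternatives, 673 kept their sign and side of the threshold, 37 lost a call, 4 gained one and 33 turned sign, none of them called.

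The turned signs were all of uncalled members. On the deposited scale they were PCF11 (-0.14), MPE1 (-0.15), PFS2 (-0.18), PAP1 (-0.06), YTH1 (-0.01), PTA1 (-0.27), SWD2 (-0.12), REF2 (-0.12), SYC1 (-0.29), MEX67 (-0.17), MTR2 (-0.17), MFT1 (-0.24) and SAC3 (-0.02). With arrays scaled to one median it was NAB2 (0.00), with the station block MPE1 (-0.50), PAP1 (-0.10) and GLE1 (0.05), and with the scan day block SYC1 (-0.03) and MEX67 (0.00). With each array left out in turn, the ranges that crossed 0 were PTA1 (-0.06 to 0.10), GLE1 (-0.17 to 0.03), SYC1 (-0.10 to 0.07), MEX67 (-0.04 to 0.28), NAB2 (-0.11 to 0.07), MFT1 (-0.02 to 0.14), THP1 (-0.47 to 0.02), MPE1 (-0.15 to 0.51) and SUB2 (-0.03 to 0.28). Whether the replicate numbers of the labels pair the arrays could not be settled with 3 arrays a strain. Deviations of same-numbered arrays correlated at -0.23, -0.09 and 0.08, and 1 of 3 deletion arrays correlated best with its own number. With the replicate number as a block 1911 probe sets and 4 members were called, HRP1 not among them (-0.48, adjusted p = 0.0629).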

Other observations

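Chromosomal neighbours of the 5 called members were read from the order of protein-coding genes in the RefSeq table. Of the 10 neighbours, all tested, 8 were not called. Of all 5257 tested genes 32.6% were called, and 10 neighbours are too few to set apart from that share. TOM6 (YOR045W), beside DBP5 and a gene of the mitochondrial protein import channel, rose by 0.96 on the log2 scale (SE 0.18, adjusted p = 0.00414). ARG7 (YMR062C), beside RNA14 and a gene of arginine synthesis, fell by 0.61 (SE 0.16, adjusted p = 0.0168), opposite in direction to RNA14. The neighbours of HRB1, MRP7 (0.14, adjusted p = 0.751) and PET8 (-0.09, adjusted p = 0.826), were not called, nor were those of HPR1, RGP1 (-0.04, adjusted p = 0.853) and RUB1 (0.24, adjusted p = 0.322).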
